A study of Caenorhabditis elegans with 2 samples.

Results

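The 251 genes described here are the microRNA precursor genes of Caenorhabditis elegans that RefSeq annotates on the WBcel235 assembly under the symbols mir-, let-7, lin-4 and lsy-6, with the 6 genes mir-51 to mir-56 left out. They are 251 of 46890 annotated nuclear genes. RefSeq types 260 nuclear genes as microRNA genes, of which 3 carry only a sequence name and were also left out, as was 1 gene with a mir- symbol but another type. The annotated precursors were 52 to 1732 bp long with a median of 95 bp, and 3 of them exceeded 200 bp. The longest was the entry for let-7, and distances are from the ends of the annotated span. Of the 251, 153 lay outside protein-coding genes, 70 lay inside a protein-coding gene on the same strand and 28 lay inside such a gene on the opposite strand. A total of 45 belonged to 15 clusters, in which neighbouring precursors on the same strand were at most 1000 bp apart.

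Binding of C38D4.7, which RefSeq describes as a protein with a C2H2-type domain, was mapped by chromatin immunoprecipitation and sequencing (ChIP-seq) in whole late embryos of strain OP708. The animals carried the unc-119(tm4063) mutation and the transgene wgIs708, which supplies C38D4.7 fused to TY1, EGFP and 3xFLAG tags together with unc-119(+). Embryos of mixed sex, synchronised by bleaching and aged 4 hours, gave 2 biological replicates of 1 group, and an antibody against GFP was used for the precipitation. The tagged protein came from 1 transgenic line, the labels do not name the promoter that drives it, and the cells of whole embryos were pooled, so a site used in few cells cannot be told apart from a weak site used in many.

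The authors deposited 4 lists of regions on ce11, which is the same assembly as WBcel235. A list of 30000 candidate regions came from replicate 1, a list of 26661 from replicate 2 and a list of 30000 from the pooled replicates. The optimal list of 649 lines was what passed the irreproducible discovery rate, a measure of how well ranks hold between replicates, and its lines were the 649 top-scoring lines of the pooled list. Each line has a summit, the point of highest signal, and an authors' score, used here only to rank lines within a list. The lists hold no read counts, so the depth behind them is unknown. Regions from worms without the tag, or with a different tagged factor, were not used, so specificity of the summits below for C38D4.7 was not tested.

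MicroRNA genes are transcribed into long primary transcripts, from which the nuclear enzyme Drosha and its partner Pasha cut a hairpin precursor. Dicer trims the hairpin to a short duplex, and an Argonaute protein keeps the mature strand, which pairs with messenger RNAs mainly through its seed, bases 2 to 8. A mirtron skips Drosha because its hairpin is an excised intron. In C. elegans, lin-4 and the let-7 family time larval cell fates, the mir-35 family is needed for embryonic development, and the bantam-related mir-58 family is abundant and acts with redundancy among its members. A microRNA gene is often transcribed from a promoter of its own upstream of the hairpin, and an intronic one can also be transcribed from its host's promoter, which can lie far away.

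Only 7 of the 251 genes had an optimal summit within 200 bp of the precursor or within 1000 bp upstream of its 5′ end. They were mir-58.1, mir-62, mir-4936, mir-2, mir-5549, mir-80 and mir-8192. RefSeq's mature strands of 6 of them are shown here with the seed in capitals. Of these, mir-58.1 and mir-80 belong to the same family and share bases 2 to 7, though not the whole seed. The sequence of mir-2 is not shown. Where RefSeq names 2 mature strands, the arm it calls b is given. The other family members of mir-58.1 and mir-80 that begin with a shared core, and mir-90, which has the seed of mir-62, are placed beside them.
mir-58.1 b: uGAGAUCGuucaguacggcaau
mir-80 b: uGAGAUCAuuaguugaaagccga
mir-58.2 b: aGAGAUCAaccauugagauccaa
mir-81 b: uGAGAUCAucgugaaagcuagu
mir-82 b: uGAGAUCAucgugaaagccagu
mir-2209.1 b: aGAGAUCAgcgguuacacuaca
mir-62 b: uGAUAUGUaaucuagcuuacag
mir-90 b: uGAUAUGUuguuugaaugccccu
mir-4936 b: uGCUUUGUggcuuugcuggua
mir-5549 b: uCAUGUUGguuuuuuguuggu
mir-8192 b: cGAAAGAGacucauugggccugc
The first 6 share bases 2 to 7, and mir-80, mir-58.2, mir-81, mir-82 and mir-2209.1 share the whole seed GAGAUCA. In the 218 microRNA genes whose mature strands were compared, no gene outside these 6 had that 6-base core, and the core of mir-62 and mir-90 was in no other gene.

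The sequence under the optimal summits differed between the genes. Windows that reach 50 bp to each side of the summit base are given for 4 of them on the strand of the microRNA gene, from RefSeq WBcel235, to show a pair of windows upstream of a precursor and a pair that overlap a precursor. Capitals mark the 6-base motif CCGCCC or its reverse complement GGGCGG. The windows are mir-58.1 at chrIV:3232982-3233082 (plus strand), mir-80 at chrIII:8865523-8865623 (minus strand), mir-4936 at chrIII:3249168-3249268 (plus strand) and mir-8192 at chrII:6943947-6944047 (plus strand).
mir-58.1 window: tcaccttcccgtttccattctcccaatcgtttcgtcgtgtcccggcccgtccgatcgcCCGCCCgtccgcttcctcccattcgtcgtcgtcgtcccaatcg
mir-80 window: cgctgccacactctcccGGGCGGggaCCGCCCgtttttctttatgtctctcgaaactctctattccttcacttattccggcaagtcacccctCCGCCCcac
mir-4936 window: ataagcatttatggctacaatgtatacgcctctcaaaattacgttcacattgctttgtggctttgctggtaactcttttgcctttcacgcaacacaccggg
mir-8192 window: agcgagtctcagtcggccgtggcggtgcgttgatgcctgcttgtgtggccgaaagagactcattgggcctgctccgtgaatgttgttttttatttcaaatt
The windows of the family members mir-58.1 and mir-80 had a GC content of 63.4% and 58.4% and both held CCGCCC, which in mir-80 occurs on both strands. The mir-4936 window had 42.6% GC and holds the DNA of the mature strand printed above. The mir-8192 window had 51.5% GC and likewise spans the end of its precursor.

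CCGCCC and 4 other motifs of 6 bases were counted on both strands in such windows. They had been picked out earlier from the optimal peaks of these data, so their shares there are descriptions. CCGCCC was in 3 of the 7 optimal windows of the microRNA genes (42.9%), those of mir-58.1, mir-80 and mir-2, against 75 of 629 nuclear optimal windows (11.9%) and 1073 of 29350 pooled windows outside the optimal list (3.66%). GTTCGA was in none of the 7, against 19.1% of nuclear optimal windows. The motif CGAACC was likewise in none, against 16.5% of nuclear optimal windows. None held CCGCAC, which was in 11.0% of nuclear optimal windows. CGCACA was in 1 of 7, against 12.4% of nuclear optimal windows. Any of the 5 motifs was in 3 of the 7 windows (42.9%), against 272 of 629 nuclear optimal windows (43.2%), so motif content as a whole was at the background. The median GC content was 51.5% in the 7 windows (39.6 to 63.4%), 50.5% in all nuclear optimal windows and 40.6% in the other pooled windows, against 35.4% for the nuclear genome. At the 113 distinct best pooled summits of the microRNA genes, 16 windows held any of the 5 motifs (14.2%), against 12.4% of pooled windows outside the optimal list, so motif content there was near the background.

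The optimal list touched the microRNA genes about as often as other genes. It placed a summit within 200 bp of 3 of 251 microRNA genes (1.2%, 95% exact Clopper-Pearson interval 0.247 to 3.45), against 2.05% of the 46633 other nuclear genes. Within 1000 bp upstream it placed a summit at 5 of 251 (1.99%, 0.65 to 4.59), against 1.39% of other nuclear genes. By either rule the share was 2.79% of microRNA genes (1.13 to 5.66) and 2.82% of other nuclear genes. All 3 intervals include the share of other genes. The intervals cover counting error over genes only, and neighbouring genes can share a summit. The 200 bp rule also favours long genes, and a span of the median precursor length laid anywhere on the nuclear chromosomes met it at 0.303% of positions. Within 1000 bp downstream of the precursor there was an optimal summit at 4 of 251 microRNA genes, against 440 of 46633 other nuclear genes (0.944%).

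The counts stayed close when either replicate was used alone, but the genes changed. When the 649 highest candidates of replicate 1 stood in for the optimal list, 2 genes met the 200 bp rule and 6 the upstream rule, and 4 of the 5 upstream genes stayed, with mir-1 and mir-354 added. With the 649 highest of replicate 2, the counts were 4 and 4, and only mir-80 of the 5 upstream genes and mir-4936 of the 3 nearby genes stayed. The genes added from replicate 2 were mir-79, mir-90 and mir-4930. The 324 highest-scoring lines of the optimal list held no summit at any microRNA gene by either rule.

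The 7 genes ranked 407 to 649 in the pooled list, all within the lower part of the optimal list. The highest was mir-58.1 (IV, 3233254 to 3233350, plus strand), which lies in an intron of phkb-1, a gene for a phosphorylase kinase subunit. Its summit was 222 bp upstream of the precursor and 10592 bp inside the start of phkb-1, with a pooled rank of 407 and a score of 236.1. The nearest replicate summit ranked 310 in replicate 1 (score 187.7) and 1864 in replicate 2 (score 51.36), and replicate ranks below are given likewise. Its family member mir-80 (III, 8865270 to 8865367, minus strand) lies outside protein-coding genes, and its summit was 206 bp upstream at pooled rank 586 (score 188.6). For mir-80 the ranks were 706 in replicate 1 (score 120.9) and 447 in replicate 2 (score 79.38). No protein-coding start was within 1000 bp of either summit.

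mir-62 (X, 12692608 to 12692665, plus strand) is a mirtron of ugt-50, a gene for a UDP-glucuronosyltransferase. Its summit at pooled rank 418 (score 229.3) was 371 bp upstream of the precursor, inside a coding exon of ugt-50 and 664 bp inside the start of that gene. It ranked 375 in replicate 1 (score 168.4) and 873 in replicate 2 (score 62.29). mir-2 (I, 9372768 to 9372865, minus strand), of a family conserved between nematodes and insects, lies in an intron of ppfr-1, which encodes a regulatory subunit of protein phosphatase. Its summit was 273 bp upstream at pooled rank 446 (score 223.0), with ranks of 342 in replicate 1 (score 175.4) and 1756 in replicate 2 (score 52.2). These summits and that of mir-58.1 were thus on the upstream side of intronic precursors and on the strand of the host, away from the host's own promoter window, which covered 1000 bp before a coding gene's start and 200 bp after it.

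The other 3 summits lay at or beside the hairpin. mir-4936 (III, 3249151 to 3249260, plus strand) had its summit 67 bp inside the precursor, on the first base of the mature strand RefSeq gives, at pooled rank 426 (score 228.2). It ranked 532 in replicate 1 (score 136.3) and 313 in replicate 2 (score 95.84), and it was also 643 bp upstream of nduf-9, a gene for a subunit of respiratory complex I. mir-5549 (III, 6971976 to 6972085, minus strand) had a summit 67 bp upstream at pooled rank 544 (score 194.9), which also lay in the promoter windows of rfc-4, a gene for a subunit of replication factor C, and eef-1A.1, a gene for translation elongation factor 1 alpha. Its ranks were 478 in replicate 1 (score 145.1) and 2454 in replicate 2 (score 48.14). mir-8192 (II, 6943885 to 6944021, plus strand), in an intron of the folliculin gene flcn-1, had a summit 112 bp inside the precursor at pooled rank 649, the last line of the optimal list (score 180.1), with ranks of 862 in replicate 1 (score 111.8) and 693 in replicate 2 (score 67.26).

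Across the replicate lists, mir-4936 was the only gene of the 7 within the first 649 lines of both. mir-58.1, mir-62, mir-2 and mir-5549 were within the first 649 lines of replicate 1 only, mir-80 of replicate 2 only, and mir-8192 of neither. None of the 7 optimal summits lay within 200 bp of a tRNA, snoRNA or snRNA gene, and 2 of them, those at mir-4936 and mir-5549, lay in the promoter window of a protein-coding gene, which at mir-5549 held for both neighbours. At these 2 the summit cannot be assigned to the microRNA gene or to a neighbour, and the assignment of the others was not tested. The shares of all optimal summits beside tRNA, snoRNA or snRNA genes or in promoter windows were not counted, so these counts are descriptions only. The summits of mir-58.1, mir-62, mir-2 and mir-8192 lay inside their host genes. That of mir-58.1 was also within 200 bp of Y67D8A.6, a gene typed ncRNA, and that of mir-4936 within 200 bp of the protein-coding gene Y53G8AL.4. Only at mir-80 was no other annotated gene within 200 bp of the summit.

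**Figure D1:**
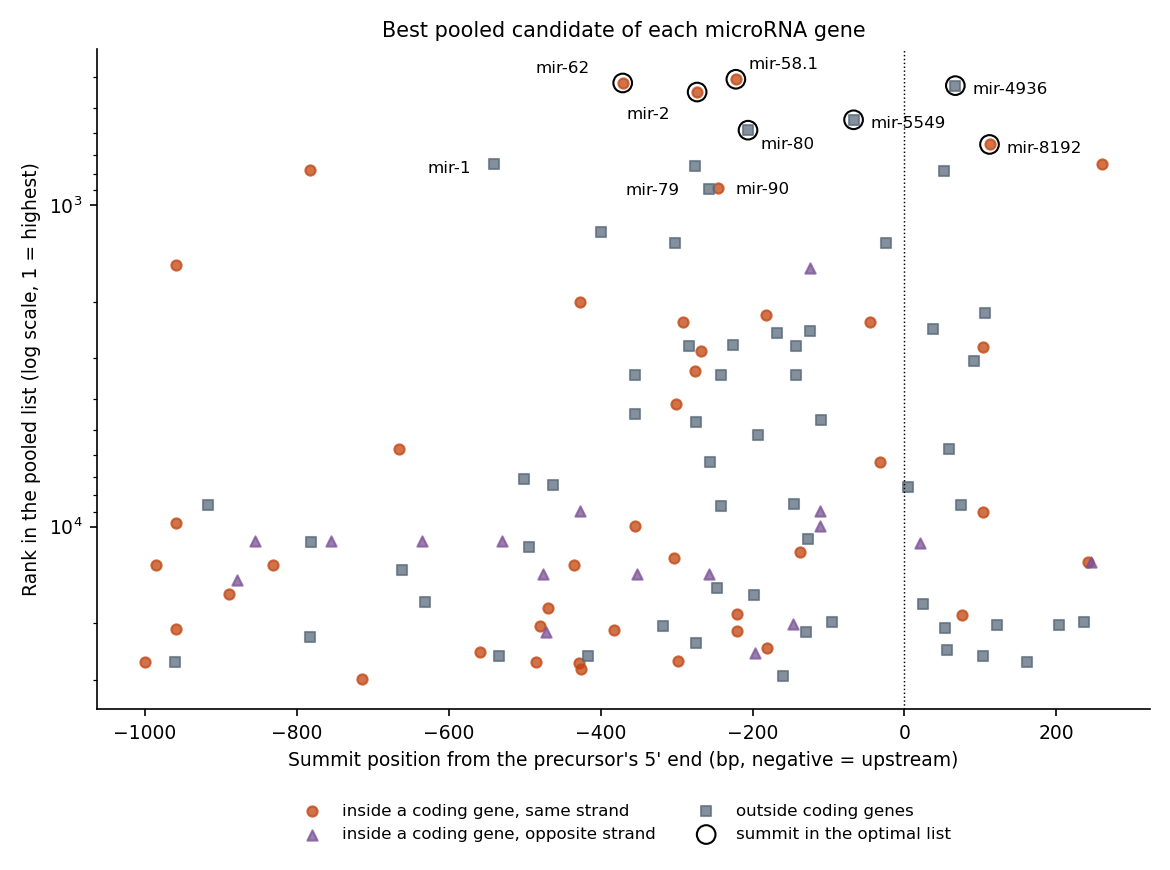
Position of the best-ranked pooled summit of each of the 118 microRNA genes that had one, in bp from the 5′ end of the precursor (x axis), against its rank in the pooled list (y axis, log scale, 1 at the top). Symbols give the position of the gene relative to protein-coding genes and open circles mark the 7 genes with an optimal summit, of which 5 lie upstream of the precursor and 2 inside it.

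In the longer pooled list, microRNA genes had an upstream candidate more often than the average gene, but not more often than every class of gene. A pooled summit lay within 1000 bp upstream of 98 of 251 microRNA genes (39.0%, 33.0 to 45.4), against 22.9% of other nuclear genes. Part of that lower figure comes from the 15363 piRNA genes, of which 8.36% had such a summit. The share was 29.3% of protein-coding genes and 34.4% of genes typed ncRNA, of which the second is inside the interval of the microRNA genes. It was 42.8% of tRNA genes and 52.9% of snoRNA genes. In the replicate lists the upstream counts were 93 of 251 in replicate 1 (37.1%, 31.1 to 43.4), against 23.4% of other nuclear genes, and 89 of 251 in replicate 2 (35.5%, 29.5 to 41.7), against 21.1%.

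Close to the precursor the share of microRNA genes was near that of other genes, a set that includes long genes, and above that of positions laid anywhere. A pooled summit lay within 200 bp of 63 of 251 (25.1%, 19.9 to 30.9), against 29.3% of other nuclear genes. The counts were 60 in replicate 1 (23.9%, 18.8 to 29.7), against 29.5% of other nuclear genes, and 62 in replicate 2 (24.7%, 19.5 to 30.5), against 28.4%. A span of 95 bp laid anywhere on the nuclear chromosomes met the rule at 13.5% of positions in the pooled list. By either rule 118 microRNA genes had a pooled candidate, 43 met both rules, and 107 of 251 had no candidate in any of the 4 lists. The shares of other nuclear genes by these combined rules were not counted, so these counts are descriptions only.

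The difference upstream was seen from the first 1000 lines on and not in the first 500. Among the first 1000 pooled lines, 10 microRNA genes had an upstream summit (3.98%), against 1.89% of other nuclear genes. Among the first 3000 lines there were 25 (9.96%), against 4.11%. By the 200 bp rule the counts in the first 3000 lines were 16 microRNA genes (6.37%) and 5.9% of other nuclear genes, against 1.42% of positions for a 95 bp span. In the first 500 lines the upstream share was 1.2% of microRNA genes (3 genes) and 1.1% of other nuclear genes.

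Upstream candidates were most frequent in the first 400 bp before the hairpin. Pooled summits lay 1 to 200 bp upstream of 34 genes, 201 to 400 bp upstream of 38, 401 to 600 bp upstream of 25, 601 to 800 bp upstream of 14 and 801 to 1000 bp upstream of 19. On the downstream side the counts over the same distances were 16, 15, 13, 25 and 26 genes, and 20 genes had a summit inside the precursor. Any summit within 1000 bp downstream was found at 78 of 251 microRNA genes, against 10293 of 46633 other nuclear genes (22.1%). The downstream share of microRNA genes was thus also above that of all other genes together, so a higher share than this set was not confined to the upstream side. This set includes the piRNA genes, and downstream shares were not counted by class of gene. Of the 98 upstream genes, the best summit lay a median of 310.5 bp before the 5′ end. From the nearest bin outwards, the upstream counts were 30, 38, 21, 13 and 13 genes in replicate 1 and 34, 25, 15, 22 and 12 in replicate 2.

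Few of these candidates lay beside tRNA, snoRNA or snRNA genes, and other noncoding classes such as piRNA genes were not counted. The shares of all pooled summits beside such genes or in promoter windows were not counted either, so the counts here are descriptions only. Of the 98 upstream best summits 1 lay beside a snoRNA gene, 24 lay in the promoter window of a protein-coding gene, that 1 included, and 74 lay at neither. Of the 63 within 200 bp, 1 was beside a tRNA gene, 1 beside a snoRNA gene and 13 in a protein-coding promoter window, and 49 were at neither. The gene beside a snoRNA gene was mir-77 and the gene beside a tRNA gene was mir-1829.3, both named after their values were seen. Clustered genes shared candidates, so that the 98 genes had 84 distinct best summits and the 63 genes had 57.

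MicroRNA genes inside protein-coding genes had upstream candidates more often than those outside. A pooled upstream summit was found for 39 of the 70 genes on the host's strand (55.7%, 43.3 to 67.6), for 15 of the 28 on the opposite strand (53.6%, 33.9 to 72.5) and for 44 of the 153 outside protein-coding genes (28.8%, 21.7 to 36.6). Within 200 bp the share was 22.9% on the host's strand, 46.4% on the opposite strand and 22.2% outside. These differences were not tested. The 7 clustered mir-35 genes, which share their candidates, are among the 28.

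The chromosomes differed. Upstream candidates were found for 20 of 27 microRNA genes on III (74.1%, 53.7 to 88.9), against 39.3% of other genes there, and for 31 of 49 on II (63.3%, 48.3 to 76.6), against 31.7%. On X they were found for 12 of 69 (17.4%, 9.32 to 28.4), against 30.7% of other genes on X. The counts were 13 of 33 on I (39.4%), against 38.2%, 15 of 46 on IV (32.6%), against 12.5%, and 7 of 27 on V (25.9%), against 21.3%. The piRNA genes of IV lower its figure for other genes, and among protein-coding genes on IV the share was 25.4%. The X chromosome thus held the most microRNA genes, and the share with an upstream candidate was below that of its other genes. Clustered genes were counted singly here, and the intervals treat them as separate. On X the 5-gene clusters of mir-4807 and of mir-1018 had no candidate, and on II the 7 clustered mir-35 genes shared theirs.

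Pooled candidates and optimal upstream summits were more frequent at the genes with the oldest names, but optimal summits within 200 bp were not. The grouping was chosen after values were seen and is a description only. Among the 53 genes lin-4, let-7, lsy-6 and mir-1 to mir-90, 37 had an upstream pooled summit (69.8%) and 26 had one within 200 bp (49.1%). Among the other 198 genes, 61 had an upstream summit (30.8%) and 37 had one within 200 bp (18.7%). The low numbers were mostly given to microRNAs cloned early, which tend to be abundant and conserved. Of the 53 genes 12 are on X and 17 are in clusters, against 57 and 28 of the 198. The 3 optimal summits within 200 bp were all at genes among mir-4805 to mir-8212, and in the first 3000 pooled lines the share within 200 bp was 11.3% of the 53 genes and 10.4% of the 77 genes mir-4805 to mir-8212. Upstream, 4 of the 53 genes and 1 of the 77 had an optimal summit. In the first 3000 lines the upstream share was 30.2% of the 53 and 6.49% of the 77. Counted by locus, with clusters taken as 1, 26 of 42 loci of the first group had an upstream summit, against 59 of 182.

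The 15 genes that followed the optimal ones ranked 747 to 2205 in the pooled list. mir-1, the muscle microRNA conserved across animals, had a summit 540 bp upstream at rank 749 (score 170.7), which ranked 546 in replicate 1 and 3970 in replicate 2. mir-79 had a summit 257 bp upstream at rank 892 (score 160.5), with ranks of 1845 in replicate 1 and 466 in replicate 2. mir-90, which has the seed of mir-62, lies near mir-80 on III and had a summit 245 bp upstream at rank 884 (score 161.1), with ranks of 2019 in replicate 1 and 631 in replicate 2. mir-71, which acts in the nervous system to extend lifespan, lies with mir-2 in ppfr-1 and had a summit of its own 427 bp upstream at rank 2003, with ranks of 4191 in replicate 1 and 1432 in replicate 2. mir-73 and mir-74 form a cluster on X and share a summit at rank 1317, 24 bp upstream of mir-73 and 302 bp upstream of mir-74.

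Of the other genes among these 15, mir-354, mir-353 and mir-8186.2 had summits in a protein-coding promoter window. The summits of mir-354 (rank 780) and mir-353 (rank 1536) lay 171 bp upstream of rps-20 and 200 bp upstream of rpl-24, the ribosomal protein genes that hold these microRNA genes, and also in the windows of ekl-4 and rps-10. The summit of mir-8186.2 (rank 756) was 565 bp upstream of gmeb-1. mir-260 (rank 1215) ranked 714 in replicate 1, and its only replicate 2 candidate, at rank 8212, was 950 bp upstream and not at the same place. mir-4930 (rank 1570) ranked 8475 in replicate 1 and 581 in replicate 2. The remaining 4 had summits in both replicates and in no promoter window. mir-2211 had a summit 52 bp inside its precursor, at the same base in both replicates, at rank 783, with ranks of 910 in replicate 1 and 1335 in replicate 2. The summit of mir-8187 was downstream of its precursor at rank 747, with ranks of 815 in replicate 1 and 1339 in replicate 2. For both of these genes replicate 1 and replicate 2 were within the first 3000 lines. mir-8196.1 had a summit 106 bp inside its precursor at rank 2169, with ranks of 3436 in replicate 1 and 4864 in replicate 2. Its replicate 2 summit lay upstream of the precursor and not inside it. mir-4813 had a summit 182 bp upstream at rank 2205, with ranks of 5804 in replicate 1 and 1952 in replicate 2. Its replicate 2 summit was 137 bp from the pooled one.

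The replicates differed for many genes, among well-ranked candidates too. By either rule 82 genes had a candidate in both replicate lists, 30 in replicate 1 only, 29 in replicate 2 only and 110 in neither. A gene counted in both lists need not have its candidates at the same place, as at mir-260 and mir-5552. Within the first 1000 lines of both lists were mir-8192, mir-4936, mir-80 and mir-62, and within the first 3000 lines of both were 13 genes. Another 17 genes were within the first 3000 lines of replicate 1 only and 10 of replicate 2 only. The 13 were the 7 optimal genes with mir-79, mir-90, mir-353, mir-2211, mir-8187 and mir-8186.2.

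**Figure D2:**
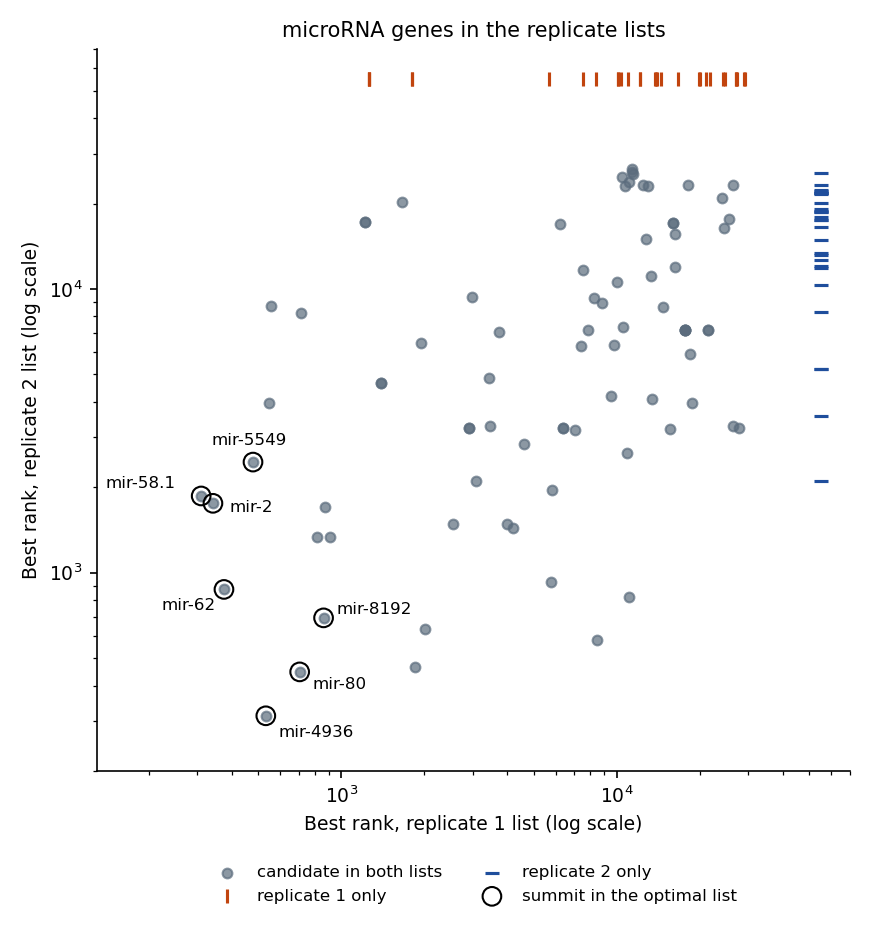
Best rank of each microRNA gene in the replicate 1 list (x axis) and the replicate 2 list (y axis), both on log scales with rank 1 the highest. Points are the 82 genes with a candidate in both lists, ticks at the top and right are the 30 and 29 genes with a candidate in 1 list only, and open circles mark the 7 genes with an optimal summit, which sit at the lower left. The ranks of a point can belong to candidates at different places.

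The let-7, lin-4 and mir-35 families, named above for development, had no optimal summit. Over all microRNA genes with an upstream pooled summit, the median rank of the best one was 10986.5, and candidates of these families lay on both sides of it. In the let-7 family none of 7 genes had an optimal summit and 4 had a pooled one by either rule, against 118 of all 251 microRNA genes. mir-241 had a summit 5 bp inside its precursor at rank 7517, mir-84 had 1 at rank 16375, 198 bp upstream, and mir-794 and mir-795 shared 1 at rank 26352. let-7 itself, annotated as a span of 1732 bp, had only a replicate 2 candidate at rank 22198. It lay 36 bp upstream of that span, and its distance from the hairpin was not measured. mir-793 had only a replicate 2 candidate at rank 10352. mir-48 had none in any list. lin-4, the first microRNA to be described, had a pooled summit 276 bp upstream at rank 3291 (score 110.8), which ranked 16343 in replicate 1 and 823 in replicate 2. Its family member mir-237 had no candidate.

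The mir-35 family, which early embryos need, had a pooled candidate at all 8 genes, against 118 of all 251 microRNA genes, but the 8 genes sit at 2 loci. The 7 clustered genes mir-35 to mir-41 lie in an intron of Y62F5A.9 on its opposite strand, and their best pooled ranks were 11050 for 4 of them and 14068 for the other 3. mir-42 is in another cluster with mir-43 and mir-44, and had a summit 143 bp upstream at rank 3371. That candidate ranked 1262 in replicate 1 and was missing in replicate 2.

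In the bantam-related mir-58 family, 7 of 8 genes had a pooled candidate by either rule, against 118 of all 251 microRNA genes. Besides mir-58.1 and mir-80, mir-58.2 had a summit 463 bp upstream at rank 7435, mir-82 had 1 at rank 18867 that neither replicate list held, mir-81 had 1 at rank 24803 and mir-2209.1 shared 1 with mir-2209.3 at rank 25231. mir-2209.2 had none. The strands printed above show that mir-81, mir-82 and mir-58.2 carry the seed of mir-80, so a shared seed did not go with a like rank. In the mir-2 family, mir-250 had a summit 284 bp upstream at rank 2744, with rank 1812 in replicate 1 and none in replicate 2. That summit was shared with its cluster neighbour mir-61 and lay in the promoter window of the protein-coding gene F55A11.4. mir-43 shared the summit of mir-42, and mir-797 had no candidate.

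Among microRNAs of the nervous system, mir-124 had a summit 303 bp upstream at rank 12492, in an intron of trpa-1, and mir-273 had a replicate 2 candidate only. lsy-6, which sets left and right taste neuron identity, and mir-791, which acts in carbon dioxide sensing neurons, had none in any list. Of 7 microRNAs linked to stress and lifespan, mir-71 and mir-238 (rank 4675, 110 bp upstream) had a pooled candidate. mir-34, mir-228, mir-239.1 and mir-239.2 had a candidate in replicate 2 only, and mir-246 had none.

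**Figure D3:**
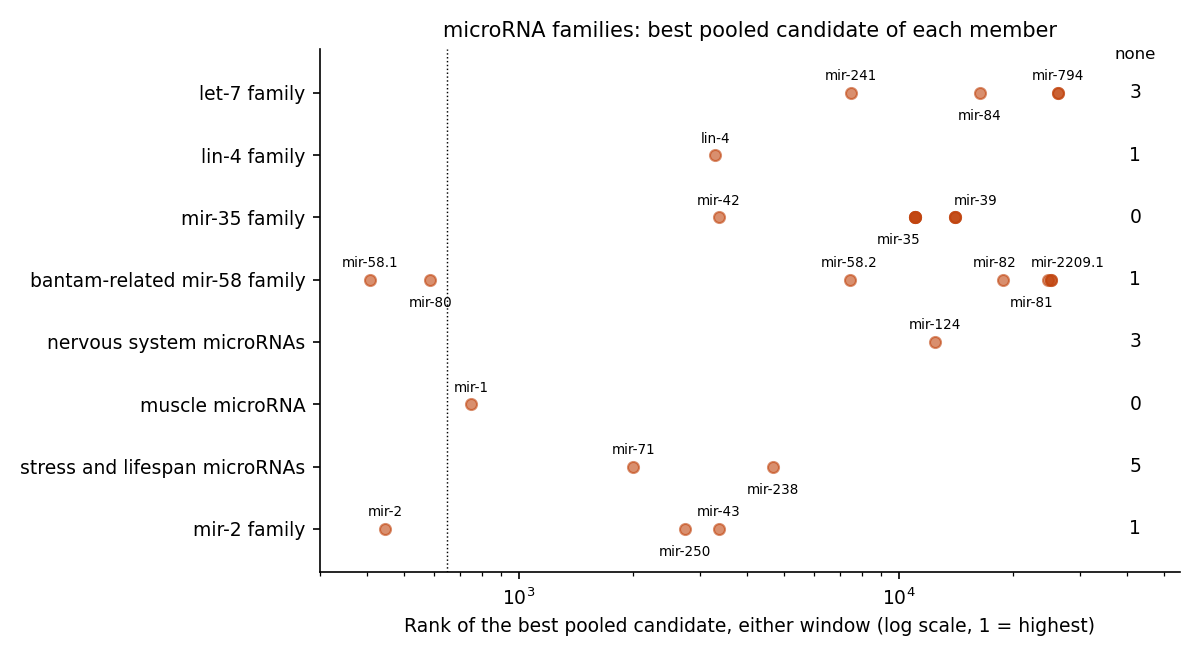
Rank of the best pooled candidate within 200 bp or 1000 bp upstream (x axis, log scale, 1 highest) for the genes of 8 microRNA families or groups, 1 point a gene, with shared summits overlaid and the first gene of each named. The dotted line is the end of the optimal list at 649 and the column on the right counts genes with no pooled candidate. mir-58.1, mir-80 and mir-2 are left of the line.

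The protein-coding genes of the pathway were examined by promoter summits, with replicate ranks taken from the best summit in the same window. Of 24 genes for microRNA processing, Argonaute proteins and their cofactors that were found in the annotation, 2 had an optimal summit in the promoter window, against 1.87% of nuclear protein-coding genes. vig-1, which encodes a component of the RNA-induced silencing complex, had a summit 412 bp upstream at rank 273 (score 298.1), with ranks of 292 in replicate 1 and 346 in replicate 2. ain-1, a GW182-family protein that joins Argonaute to silencing factors, had a summit 969 bp upstream at rank 467 (score 213.0), near the edge of the window, with ranks of 425 in replicate 1 and 963 in replicate 2. In the pooled list 15 of the 24 had a promoter summit, against 33.6%. They included alg-5, an Argonaute gene, at rank 816, and alg-1, the main microRNA Argonaute gene, at rank 12942.

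Of 9 genes regulated by lin-4 or let-7 microRNAs, none had an optimal promoter summit, against 1.87% of nuclear protein-coding genes. A pooled promoter summit was found at 6 of the 9, against 33.6%. hbl-1, the hunchback-like transcription factor gene and a target of the let-7 family, had a summit 994 bp upstream at rank 651, just past the end of the optimal list, with ranks of 722 in replicate 1 and 768 in replicate 2. lin-14, the main target of lin-4, had a summit 873 bp upstream at rank 2554, and lin-42 had 1 at rank 2286. Both of these and hbl-1 had candidates in both replicates, whereas lin-28, lin-46 and daf-12 had them in replicate 1 only.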

How the data were processed

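The authors deposited 4 region lists on ce11, made per the read-me texts from each replicate and from pooled replicates against a shared control, with optimal regions from the irreproducible discovery rate. Column 7 is the authors' deposited score, whose scaling is not stated. Column 9 is −log10 of the authors' q-value, per the layout of the deposited lists, and was not used to rank. The aligner, caller and threshold: not given in the sources used here. Depth is unknown.

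From these lists, summits (region start plus offset) were assigned to RefSeq WBcel235 genes with Python 3.11.15, pandas 2.3.3, numpy 2.4.6 and scipy 1.17.1, and plotted with matplotlib 3.10.9. The windows were 200 bp around the annotated gene and 1000 bp upstream of its 5′ end on its strand. Protein-coding promoters ran 1000 bp upstream to 200 bp downstream. No test between groups was possible with 1 group. Window assignment was tested on simulated positions. Named genes were those with an optimal summit, the 15 next by pooled rank, the microRNA families, and pathway genes with an optimal summit. Pathway genes with pooled summits were chosen after their values were seen. The genes and lists were chosen with earlier results of these data known.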

Additional observations from a re-analysis of the deposited data

How the results depend on the processing

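Of 32 alternatives over the 4 counts of microRNA genes, 24 stayed within 1.5 times the value. For optimal summits within 200 bp (3 genes), the count was 8 within 500 bp, 5 by overlap of the whole region and 0 in the 324 highest-scoring lines. For optimal upstream summits (5 genes) it was 0 in those lines. For pooled summits within 200 bp (63 genes) it was 41 within 100 bp, 108 within 500 bp and 29 in the first 10000 lines, and for upstream ones (98 genes) it was 48 in those lines. These follow from wider or narrower windows and shorter lists. Leaving out either replicate gave 2 to 4, 4 to 6, 60 to 62 and 89 to 93 genes. Without the 3 longest genes, an alternative chosen after seeing the data, the 200 bp counts were 3 and 61. No paired analysis was possible because there is 1 group. Depth could not be weighed, and rank alone stands for the strength of a candidate.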
